A study of Mus musculus with 12 samples.

Results

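Egfl6, Kif26b, Tcim, Pawr, Kcp, Mex3a and Spock1 are 7 genes of 18193 measured whose level was higher in dermal fibroblasts of inflamed mouse skin than in those of normal skin. They were chosen on that difference, so it is given here as a description. Their values in fibroblasts around papillomas were also known at the choice. Described below is where the genes stood there: higher still, still raised, or back near the normal level. The 7 genes are represented by 11 probe sets that the platform annotation pairs with exactly 1 symbol, and a gene is given by whichever of its probe sets had the largest average across the 12 arrays. All 7 belonged to the 47 genes called higher in inflamed skin, where they ranked between 3 and 13 by size, and that group makes up 0.258% of all genes tested. On each of the 7, all 4 inflamed arrays lay above all 4 normal arrays, as they did for 5.07% of all genes. The last gene inside that group, Fnbp1l, had a difference of 1.66 (log2) and the first outside it, Fxyd3, one of 1.41.

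RNA of sorted fibroblasts was measured on 12 Affymetrix arrays, 1 per sample, with 4 arrays for each of 3 groups. All mice were 7-week-old males that carried a PDGFRα-H2B-eGFP allele, which puts a fluorescent histone into the nuclei of cells that express PDGF receptor alpha, and GFP-positive cells were sorted from digested dermis of the back. The WT group is normal skin of wild-type mice, the InvEE group is inflamed skin of InvEE mice, and the Pap group is skin with papillomas, labelled tumour-associated, also of InvEE mice. The InvEE transgene expresses an activated MEK1 kinase from the involucrin promoter, which is active in differentiating keratinocytes and not in fibroblasts, so it acts from the epidermis. Whether the 4 arrays of a group stem from 4 different mice is not said in the labels, and the p-values reflect only how these samples scatter, some of which may be technical. In sorted bulk samples, fewer cells of a kind and less RNA per cell cannot be told apart.

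The genes act in different places. Egfl6 is a secreted protein with EGF repeats that is laid down in the basement membrane around hair follicles and binds an integrin through its RGD site, and Spock1 encodes testican-1, a secreted proteoglycan of the SPARC family. Kcp is a secreted protein with cysteine-rich repeats, related to chordin, that strengthens BMP signals and weakens TGF-beta signals. Kif26b is an atypical kinesin whose protein level is lowered by Wnt5a acting through Ror receptors. Tcim is a small nuclear protein that frees beta-catenin from its inhibitor Chibby, Pawr (also called Par-4) is a leucine zipper protein that promotes apoptosis and binds WT1 and atypical protein kinase C, and Mex3a is an RNA-binding protein with KH domains.

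Of the 7 genes, 6 have an entry in the RefSeq promoter table of build GRCm38.p6, which covers 250 bases before and 50 after a start site. The 4 shown are from either end of the split described below: Kif26b and Pawr, which were highest in papilloma-associated skin, and Egfl6 and Spock1, the members called lower there than in inflamed skin. Capitals mark matches to the motifs searched, on either strand.
Kif26b: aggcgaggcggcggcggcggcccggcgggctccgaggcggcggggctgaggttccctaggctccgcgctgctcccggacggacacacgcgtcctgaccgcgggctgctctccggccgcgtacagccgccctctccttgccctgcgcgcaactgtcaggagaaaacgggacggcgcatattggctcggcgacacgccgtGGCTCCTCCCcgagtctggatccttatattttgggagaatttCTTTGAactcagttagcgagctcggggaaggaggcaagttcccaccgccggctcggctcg
Pawr: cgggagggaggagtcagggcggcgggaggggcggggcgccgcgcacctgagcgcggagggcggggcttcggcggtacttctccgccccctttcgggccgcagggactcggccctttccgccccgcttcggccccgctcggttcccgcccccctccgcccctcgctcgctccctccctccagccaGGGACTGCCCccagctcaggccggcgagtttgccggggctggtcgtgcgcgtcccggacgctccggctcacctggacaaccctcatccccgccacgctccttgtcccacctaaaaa
Egfl6: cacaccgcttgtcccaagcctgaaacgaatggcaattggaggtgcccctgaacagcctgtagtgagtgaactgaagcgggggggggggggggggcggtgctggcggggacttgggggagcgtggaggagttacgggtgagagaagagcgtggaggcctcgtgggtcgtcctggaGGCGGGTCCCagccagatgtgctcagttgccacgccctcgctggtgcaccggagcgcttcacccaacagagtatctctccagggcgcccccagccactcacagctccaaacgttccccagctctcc
Spock1: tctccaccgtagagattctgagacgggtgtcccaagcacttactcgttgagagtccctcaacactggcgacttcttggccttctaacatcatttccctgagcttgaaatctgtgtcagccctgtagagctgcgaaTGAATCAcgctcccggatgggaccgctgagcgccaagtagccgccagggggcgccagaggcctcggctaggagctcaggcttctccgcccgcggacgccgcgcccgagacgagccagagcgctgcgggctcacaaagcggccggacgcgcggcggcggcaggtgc
The Kif26b window lies at chr1:178528875-178529174 on the plus strand, that of Pawr at chr10:108331939-108332238 on the plus strand, that of Egfl6 at chrX:166585667-166585966 on the minus strand and that of Spock1 at chr13:57908283-57908582 on the minus strand. The motifs searched on both strands were TGANTCA for AP-1, CTTTGA for TCF/LEF, GGAATG for TEAD, CAGACA for Smad, TATAAA for the TATA box and, for NF-kappaB, GGGA and CC with 4 bases of any kind between them. No 2 matches overlapped in the promoters shown, and a match is a description of letters, not a site. The Kif26b promoter holds a CTTTGA match that begins at position -10 from the start site, which 16.0% of the 32851 promoter entries also hold. The Spock1 promoter holds an AP-1 match, TGAATCA, that begins at position -115, and 7.81% of entries hold one. A match to the NF-kappaB letters was found in the promoters of Egfl6, Kif26b, Pawr and Mex3a, and in 20.7% of all entries. Those letters are mostly G and C, in which the 6 promoters were richer than the median entry. All entries are therefore not a matched background for this count. The Kcp promoter had no match, and none of the 6 promoters held a TEAD, Smad or TATA match. The promoters were rich in G and C, between 63.0% for Mex3a and 75% for Pawr, where the median of all entries was 52.7%. They held between 17 CG dinucleotides in Egfl6 and 38 in Kif26b, against a median of 7 over all entries.

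Some arrays and controls stood apart. Normal array 4 and papilloma-associated array 4 correlated least with the other arrays of their group, with medians of 0.925 and 0.892 over all probe sets, where the other arrays lay between 0.951 and 0.984. The poly-A spike controls, bacterial RNAs added as a check of amplification, were lower on all inflamed arrays (7.76 to 8.60) than on any normal (9.24 to 12.24) or papilloma-associated array (9.78 to 12.50). The difference between 3′ and 5′ Gapdh probe sets, which grows with RNA breakdown, was 1.59 to 2.28 on normal, 1.62 to 3.37 on inflamed and 2.29 to 3.76 on papilloma-associated arrays. Shifting each array by its ribosomal protein mean moved the median Pap minus InvEE difference of all genes by 0.39 and the share of higher among called genes from 54.7% to 90.1%. For Pap minus WT the shift was 0.20 and that share went from 50.3% to 68.9%, and for InvEE minus WT it was -0.19, with a share that went from 48.5% to 27.2%. The part of these controls in the results below was not tested beyond the fits named beside them.

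In papilloma-associated skin the 7 genes parted. Tcim rose further, Kif26b and Pawr stayed far above normal, Egfl6 and Spock1 fell back, and the means of Kcp and Mex3a lay between on the probe sets used. Mex3a was not called in papilloma-associated skin against either other group. Against inflamed skin, 1 of the 7 genes was called higher and 2 were called lower by limma, that is with a p under 0.05 after Benjamini-Hochberg adjustment across the 18193 genes, where 3.67% of all genes were called higher and 3.04% lower. Against normal skin, 4 of the 7 were called higher, where 4.85% of all genes were, and none was called lower, where 4.8% were. In 2 of the 7, Tcim and Kif26b, all papilloma-associated arrays lay above all inflamed arrays (14.5% of all genes), and in 3, Mex3a, Egfl6 and Spock1, all lay below (6.66%). In 3, Tcim, Kif26b and Pawr, all lay above all normal arrays (7.22%). These comparisons share inflamed or normal arrays with the choice of the genes, which was made with the papilloma-associated values known. The counts of members therefore describe the genes chosen and support nothing beyond them. An inflamed level that was high by chance would make Pap minus InvEE more negative, and a normal level that was low by chance would make Pap minus WT more positive. With both arrays numbered 4 of normal and papilloma-associated skin left out, an alternative chosen after seeing the data, 2 of the 7 were called higher and 2 lower than in inflamed skin, and 4 higher than in normal skin. With the spike control level as a covariate, none of the 7 was called in either direction against inflamed skin, and 4 were still called higher than in normal skin. In that fit limma called 259 genes against inflamed skin, and 2868 had an unadjusted p under 0.05.

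**Figure D1:**
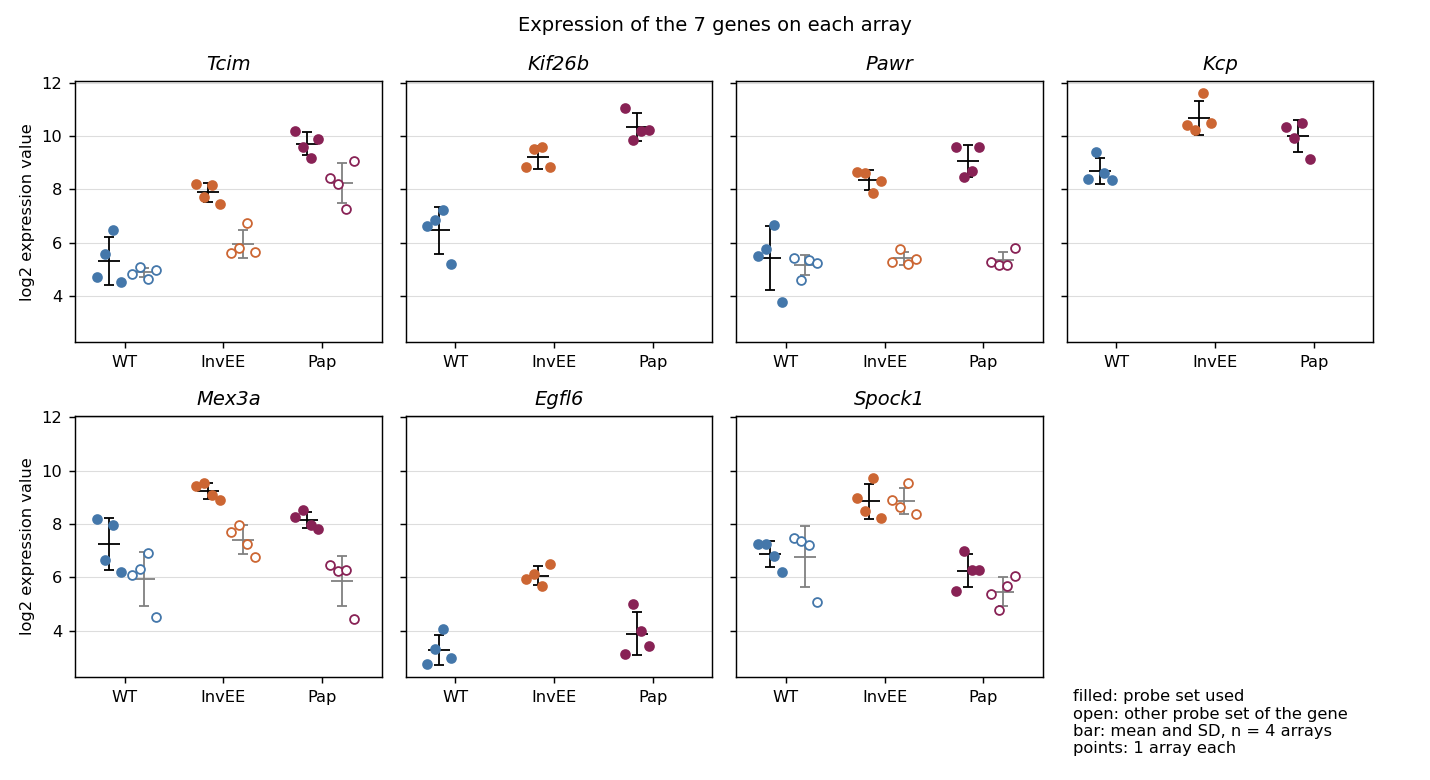
Log2 expression values (vertical axis) of the 7 genes on the 12 arrays, by group; filled points are the probe set used, open points another probe set of the same gene, and bars give the mean and SD of 4 arrays. On the probe sets used, Tcim, Kif26b and Pawr were highest in Pap, with group means of 9.71, 10.34 and 9.07. Egfl6 and Spock1 on those probe sets were highest in InvEE, at 6.07 and 8.85, and near their normal level in Pap.

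Tcim (chr8:24437172-24438946, GRCm38.p6) was the member that went on rising. Its log2 values were 4.70, 5.56, 6.48 and 4.52 on normal arrays 1 to 4, 8.20, 7.71, 8.15 and 7.45 on inflamed arrays, and 10.19, 9.58, 9.16 and 9.90 on papilloma-associated arrays. The groups did not overlap, with normal arrays lowest and papilloma-associated arrays highest. The mean rose from 7.88 ± 0.36 (SD, n = 4) in inflamed to 9.71 ± 0.44 in papilloma-associated skin, a difference of 1.83 ± 0.39 (SE), or 3.56-fold, with a limma adjusted p of 0.0167 (0.00114 to 0.12 over the alternatives). Against normal skin (5.31 ± 0.90) the difference was 4.39 ± 0.39, or 21-fold, with a limma adjusted p of 3.39e-05. The normal mean was dim, that is under 6.162, a limit below which 40% of all probe sets had their mean, so the size of the last difference depends on how background was treated.

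The other Tcim probe set gave the same order. It had means of 4.88 ± 0.19 (SD) in normal, 5.95 ± 0.53 in inflamed and 8.23 ± 0.74 in papilloma-associated skin (n = 4 each), so that most of its rise fell between inflamed and papilloma-associated skin (2.28 ± 0.35, limma adjusted p = 0.00336 over all probe sets). On this probe set the inflamed group was raised by 1.07, against 2.56 on the one used. The call of Tcim against inflamed skin was lost without inflamed array 2 (1.77 ± 0.44, limma adjusted p = 0.054) or inflamed array 4 (1.69 ± 0.43, limma adjusted p = 0.0528). With the spike level as a covariate its difference was 2.31 ± 0.66 (limma adjusted p = 0.12).

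Kif26b (chr1:178529125-178932857) was measured at 6.61, 6.84, 7.22 and 5.20 on normal, 8.83, 9.52, 9.60 and 8.83 on inflamed, and 11.06, 9.85, 10.20 and 10.22 on papilloma-associated arrays. Every papilloma-associated array lay above every inflamed array, and normal array 4 was the lowest of all. The mean rose from 6.47 ± 0.89 (SD, n = 4) in normal to 10.34 ± 0.51 in papilloma-associated skin, by 3.87 ± 0.40 (SE), or 14.6-fold, with a limma adjusted p of 0.000124. Against inflamed skin (9.20 ± 0.42) the difference was 1.14 ± 0.40, with a 95% interval of 0.26 to 2.02 that is not adjusted for the number of genes, and a limma adjusted p of 0.109. It passed without normal array 4 (limma adjusted p = 0.0323), without both arrays numbered 4 (0.0435 in limma), with array weights (0.0308 in limma) and after the ribosomal protein shift (1.53, limma adjusted p = 0.0148), and it did not pass with the other settings tried.

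Pawr (chr10:108332189-108414391) had log2 values of 5.50, 5.74, 6.67 and 3.78 on normal, 8.64, 8.61, 7.86 and 8.29 on inflamed, and 9.58, 8.44, 8.68 and 9.57 on papilloma-associated arrays. Both groups of transgenic mice lay above all normal arrays, and they overlapped each other. The mean rose from 5.42 ± 1.20 (SD, n = 4) to 9.07 ± 0.59 in papilloma-associated skin, by 3.65 ± 0.50 (SE), with a limma adjusted p of 0.00079. Without normal array 4, the lowest of all, the difference was 3.10, and it was called there too. Against inflamed skin (8.35 ± 0.36) it was 0.72 ± 0.50 (95% interval -0.37 to 1.81, limma adjusted p = 0.365).

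The second probe set of Pawr did not follow. Its group means were 5.15 ± 0.37, 5.40 ± 0.25 and 5.34 ± 0.30 (SD, n = 4), all dim, and its Pap minus WT difference was 0.19 (limma adjusted p = 0.692). The change of Pawr therefore rests on 1 probe set.

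Kcp (chr6:29473162-29508003) kept part of its rise. Its log2 values were 8.40, 9.39, 8.59 and 8.33 on normal, 10.40, 10.22, 11.61 and 10.47 on inflamed, and 10.35, 9.93, 10.49 and 9.15 on papilloma-associated arrays. Inflamed array 3 stood above the rest, and papilloma-associated array 4 lay below the highest normal array, so papilloma-associated and normal arrays overlapped. Normal skin had a mean of 8.68 ± 0.49 (SD, n = 4), inflamed skin of 10.68 ± 0.63 and papilloma-associated skin of 9.98 ± 0.60. Kcp was called higher in papilloma-associated than in normal skin, by 1.30 ± 0.37 (SE), or 2.47-fold, close to the threshold (limma adjusted p = 0.0446, 0.0151 to 0.113 over the alternatives). When each of the 12 arrays was left out in turn, the difference ran from 1.13 to 1.58 and the call was lost in 9 fits, all but those without normal array 2, inflamed array 3 or papilloma-associated array 4. The difference from inflamed skin was -0.69 ± 0.37 (95% interval -1.50 to 0.11, limma adjusted p = 0.244), or 0.13 with the spike level as a covariate.

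Mex3a (chr3:88531946-88541394) was measured at 8.18, 6.66, 7.95 and 6.19 on normal, 9.41, 9.54, 9.09 and 8.89 on inflamed, and 8.25, 8.52, 7.98 and 7.82 on papilloma-associated arrays. Inflamed arrays lay above both other groups, and normal arrays spread widely and overlapped papilloma-associated arrays. Group means were 7.25 ± 0.97 (SD, n = 4), 9.23 ± 0.30 and 8.14 ± 0.31 for normal, inflamed and papilloma-associated skin. The difference from inflamed skin was -1.09 ± 0.39 (SE, 95% interval -1.94 to -0.24 without adjustment, limma adjusted p = 0.111), and it passed where only the 8 arrays of these groups were fitted (limma adjusted p = 0.0225, with 0.93 the highest over the alternatives). Against normal skin the difference was 0.90 ± 0.39 (limma adjusted p = 0.193). The other Mex3a probe set gave means of 5.95 ± 1.02, 7.42 ± 0.53 and 5.86 ± 0.95, with papilloma-associated array 4 the lowest at 4.44. In papilloma-associated skin it differed from inflamed skin by -1.56 (limma adjusted p = 0.112) and from normal skin by -0.09 (limma adjusted p = 0.952).

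Egfl6 (chrX:166523007-166585716) returned towards its normal level. Its log2 values were 2.74, 3.31, 4.05 and 2.98 on normal, 5.95, 6.13, 5.68 and 6.5 on inflamed, and 3.14, 5.00, 3.98 and 3.44 on papilloma-associated arrays. All inflamed arrays lay above all others, while papilloma-associated and normal arrays overlapped, with papilloma-associated array 2 the highest outside the inflamed group. The mean fell from 6.07 ± 0.34 (SD, n = 4) in inflamed to 3.89 ± 0.82 in papilloma-associated skin, a difference of -2.18 ± 0.39 (SE), or 4.52-fold, with a limma adjusted p of 0.00614 (0.00147 to 0.321 over the alternatives). Against normal skin (3.27 ± 0.57) the difference was 0.62 ± 0.39 with a 95% interval of -0.22 to 1.46 (limma adjusted p = 0.386). All 3 group means were dim, so these sizes depend on the background treatment, and the gene drops out where dim genes are left out.

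Spock1 (chr13:57421195-57908332) fell the furthest of the 7. Its values were 7.26, 7.25, 6.81 and 6.2 on normal, 8.96, 8.50, 9.72 and 8.23 on inflamed, and 5.48, 7.00, 6.27 and 6.26 on papilloma-associated arrays. Inflamed arrays stood clear of both other groups, which overlapped. The mean fell from 8.85 ± 0.65 (SD, n = 4) in inflamed to 6.25 ± 0.62 in papilloma-associated skin, a difference of -2.60 ± 0.38 (SE), or 6.06-fold, with a limma adjusted p of 0.00176 (0.00045 to 0.132 over the alternatives). Against normal skin (6.88 ± 0.50) the difference was -0.63 ± 0.38 (95% interval -1.45 to 0.20, limma adjusted p = 0.37). Spock1 was the 1 member whose mean in papilloma-associated skin lay below normal on the probe set used.

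The second Spock1 probe set showed the same course. Its means were 6.78 ± 1.13 (SD) in normal, 8.86 ± 0.50 in inflamed and 5.46 ± 0.54 in papilloma-associated skin (n = 4 each), with a Pap minus InvEE difference of -3.40 ± 0.49 (SE, limma adjusted p = 0.00237 over all probe sets). Once the spike level entered the model, the difference was -2.16 ± 0.64 on the probe set used (limma adjusted p = 0.132), and that of Egfl6 was -1.28 ± 0.58 (limma adjusted p = 0.321). With both arrays numbered 4 left out they were -2.60 and -2.03, both called.

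**Figure D2:**
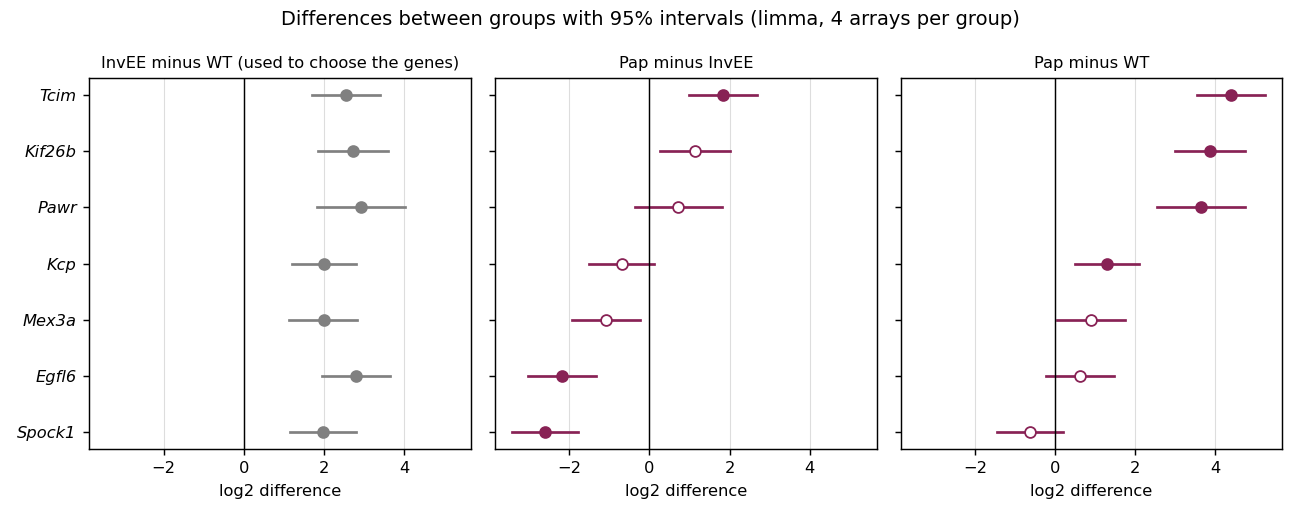
Log2 differences (horizontal axis) of the 7 genes for each pair of groups, with 95% intervals from limma that are not adjusted for the number of genes; in the Pap comparisons filled points passed an adjusted p under 0.05 and open points did not. Starting from similar rises in InvEE (1.97 to 2.93), the genes spread from -2.60 for Spock1 to 1.83 for Tcim between InvEE and Pap.

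Whether 2 members differed in their change from inflamed to papilloma-associated skin was tested on the difference between them within each array, in which the effect of the probe sets cancels. The two-sided exact permutation test gave 15 of the 21 pairs the lowest p that groups of 4 arrays can reach, 0.0286, which is 0.04 once adjusted for 21 pairs. Since the genes were picked with their values in papilloma-associated skin known, this describes the split and supports nothing beyond it. The pairs past that level included Tcim against Pawr, whose changes differed by 1.11, and Mex3a against Spock1, by 1.51. The 6 other pairs were Kif26b with Tcim (-0.69, exact permutation p = 0.0857), Kif26b with Pawr (0.42, exact permutation p = 0.343), Egfl6 with Spock1 (0.42, exact permutation p = 0.514), Kcp with Mex3a (0.39, exact permutation p = 0.486), Egfl6 with Kcp (-1.48, exact permutation p = 0.0857) and Pawr with Kcp (1.41, exact permutation p = 0.0857). A p that misses the threshold does not show that these pairs act alike.

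The other 40 genes called higher in inflamed skin also went different ways. Their median difference between papilloma-associated and inflamed skin was 0.00, with quartiles at -0.99 and 0.96 and a range of -3.69 to 5.02, and 20 of them lay above and 20 below 0. The median of the 7 members was -0.69, with 3 above 0, and that of all genes 0.12. Against normal skin the medians were 1.32 for the other 40 genes, 1.30 for the members and 0.04 for all genes.

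The 3 genes nearest to each member were found by the root mean square (RMS) difference of log2 values over the 12 arrays, after each gene was centred on its mean. Since they were picked for following a member over these arrays, their group differences are part of the choice and are given with no test. For Kif26b they were Nid2, a basement membrane nidogen (0.34), Tpm2, a tropomyosin of actin filaments (0.41), and Pawr (0.46). For Tcim they were Nid2 (0.44), Acta2, smooth muscle actin (0.49), and Col11a1, a fibrillar collagen chain (0.51), and for Pawr they were Tpm2 (0.45), Kif26b (0.46) and Acta2 (0.53). So Kif26b and Pawr were each among the other's nearest genes, and the Kif26b and Pawr pair was the closest of the 21 pairs of members. Nid2 had means from 6.65 in normal through 9.14 in inflamed to 10.59 in papilloma-associated skin, with a last step of 1.45 ± 0.35 (SE, n = 4 arrays per group). The same step was 0.81 for Tpm2, 1.33 for Acta2 and 1.63 for Col11a1. Acta2 and Tpm2 were not alike on all probe sets. The 2 others of Acta2 differed by 0.48 and 0.98 between papilloma-associated and normal skin, against 4.32 on the one used. The 3 others of Tpm2 differed by 0.88, -0.1 and 0.03 between papilloma-associated and inflamed skin, against 0.81 on the one used. Between papilloma-associated and normal skin those 3 differed by 3.14, 1.64 and 2.14, against 3.18 on the one used. Nid2, Tpm2, Acta2 and Col11a1 were all lowest on normal array 4, as were Kif26b, Tcim and Pawr. Kcp and Mex3a were lowest on that array as well, so this is not particular to the genes named before.

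Kcp lay nearest to Mest, a paternally expressed hydrolase (RMS difference 0.33), Jag1, a Notch ligand (0.43), and Runx3, a transcription factor (0.43). Their Pap minus WT differences were 1.17, 1.21 and 1.06, beside 1.30 for Kcp, and their Pap minus InvEE differences -0.32, -0.64 and -0.66. Mex3a lay nearest to Gjc1, a gap junction connexin (0.37), Cry1, a repressor of the circadian clock (0.49), and Kdm6b, a histone demethylase (0.50). Their Pap minus InvEE differences were -0.49, -0.81 and -0.72, beside -1.09 for Mex3a. Further probe sets of Kdm6b gave -1.13 and -0.02.

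The nearest genes of Spock1 were Hey1, a transcriptional repressor downstream of Notch (RMS difference 0.44), Gprasp2, a receptor sorting protein (0.46), and Alx4, a homeodomain factor of the dermal papilla list (0.46). The Pap minus InvEE difference was -2.77 ± 0.45 (SE) for Hey1, -2.03 ± 0.27 for Gprasp2 and -2.76 ± 0.57 for Alx4, beside -2.60 for Spock1. Egfl6 lay nearest to Itih5, which stabilises hyaluronan matrix (0.67), Col17a1, the hemidesmosomal collagen of basal keratinocytes (0.69), and Tfrc, the transferrin receptor (0.70). Their Pap minus InvEE differences were -1.25, -2.42 and -1.27, with means of 7.07 and 4.65 for Col17a1 in inflamed and papilloma-associated skin. Further probe sets of Tfrc gave -0.38 and -1.8. The likeness of Egfl6 to its neighbours was looser than that of any other member.

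**Figure D3:**
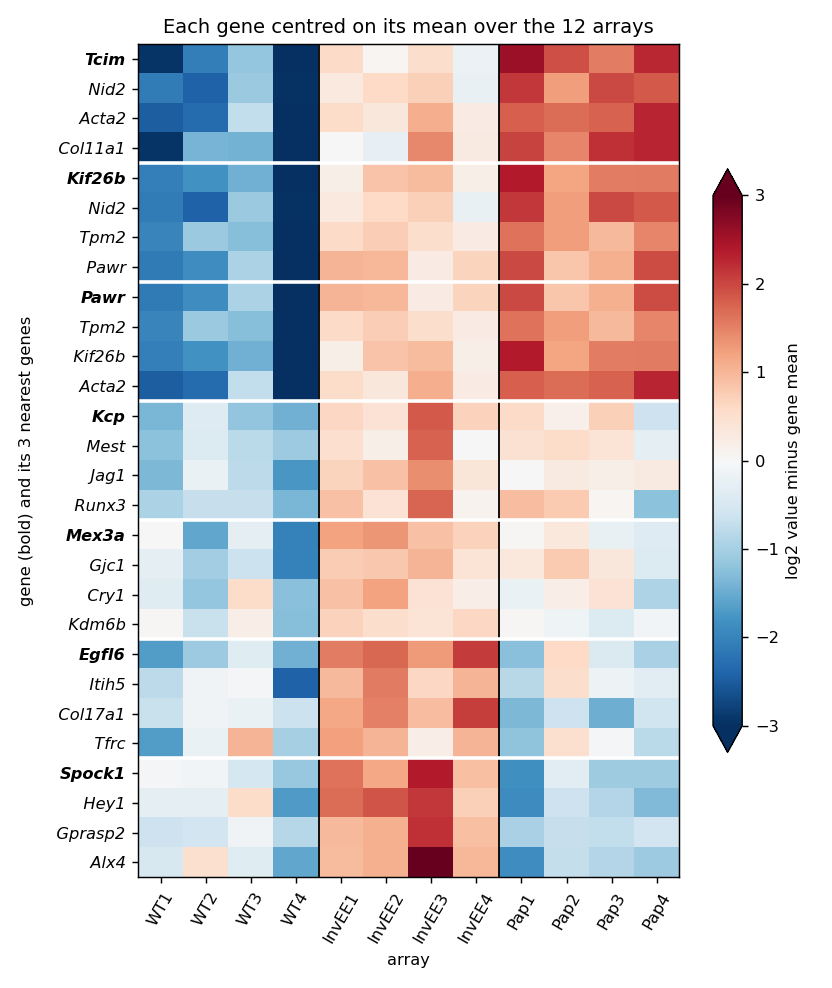
Log2 values of each member (bold) and its 3 nearest genes, centred on the gene's mean over the 12 arrays (columns), where red is above and blue below that mean and colours saturate at 3. Tcim, Kif26b and Pawr share low values on normal and high values on papilloma-associated arrays, and Spock1 and its neighbours are highest on inflamed arrays. Both Spock1 with its neighbours and Kcp with its neighbours Mest, Jag1 and Runx3 peak on inflamed array 3.

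The gate took GFP-positive cells, which should leave out keratinocytes, leukocytes and endothelium and can hold dermal papilla cells and other PDGFRα-positive cells. Of 13 measured dermal papilla and dermal sheath markers, 8 were called lower in papilloma-associated than in inflamed skin and none higher, with a median of -2.76. Wif1, a secreted Wnt inhibitor, fell by -5.30 ± 1.14 (SE, n = 4; limma adjusted p = 0.017), Sox18, a transcription factor, by -3.96 ± 0.47 (limma adjusted p = 0.000457), and Rspo3, a Wnt agonist, by -3.26 ± 0.64 (limma adjusted p = 0.0109; -0.72, not called, on its other probe set). The list's mean level per array was 9.32 to 11.24 in inflamed, 7.12 to 8.75 in normal and 7.04 to 8.07 in papilloma-associated skin. Inflamed array 3, the highest, was also the highest for Spock1 and Kcp. Egfl6 (5.68) and Pawr (7.86) instead had their lowest inflamed value on that array. The count was 8 without both arrays numbered 4 and 0 with the spike level as a covariate (median -1.31). Against normal skin 3 markers were lower and 1 higher in papilloma-associated skin, and inflamed minus normal had a median of 2.11 with 0 called by limma and 11 with an unadjusted p under 0.05. No marker of the list was dim in inflamed arrays, and 3 were in normal and 5 in papilloma-associated arrays. The part of such cells in the courses of Egfl6 and Spock1 was not tested.

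Of 15 keratinocyte markers, a cell type that the gate should remove, 2 were called higher in inflamed than in normal skin and none lower: Krt15 (1.89, limma adjusted p = 0.0202) and Perp, a desmosome-associated membrane protein (3.5, limma adjusted p = 0.0478). The count was 1 without both arrays numbered 4 and 0 with the spike covariate, where limma called 0 of all genes in that comparison and 2206 had an unadjusted p under 0.05. The mean of the 15 markers was 6.43 to 6.72 on normal, 7.37 to 8.47 on inflamed and 6.63 to 8.0 on papilloma-associated arrays, and Cdh1, which encodes E-cadherin, was dim in all groups. Krt15, a keratin found in the basal layer and the follicle bulge, fell by -2.16 ± 0.27 (SE, n = 4) from inflamed to papilloma-associated skin (limma adjusted p = 0.000609) and was the 1 marker called there. Against normal skin 3 were called higher in papilloma-associated skin: Dsp, a desmosome protein (3.11 ± 0.81, limma adjusted p = 0.0303), Krt14, a basal keratin (2.38 ± 0.58, limma adjusted p = 0.0228), and Krt6a, a keratin of stressed epidermis (2.31, limma adjusted p = 0.0283). Further probe sets of Dsp (0.10 and 1.95) and Krt14 (0.16 and 1.66) missed the threshold. Without both arrays numbered 4 none of the 3 was called by limma there. The part of these markers in the courses of the 7 genes was not tested.

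General fibroblast markers were high in all groups, with means of 10 markers between 12.77 and 13.18 on every array. These means were 12.93 to 13.02 on normal, 12.77 to 12.92 on inflamed and 13.03 to 13.18 on papilloma-associated arrays. Pdgfrb (0.55, limma adjusted p = 0.0211) and Dpt (0.48, limma adjusted p = 0.0437) were called higher in papilloma-associated than in inflamed skin, and none lower. That count of 2 was 3 without both arrays numbered 4 and 0 with the spike covariate. Pdgfra, the gene of the sort's reporter, was 0.93 ± 0.25 (SE, n = 4) higher in papilloma-associated than in normal skin (limma adjusted p = 0.0349). Its other probe sets gave 1.09 and 1.75, not called (limma adjusted p = 0.0966 and 0.297), and the call was lost without both arrays numbered 4. Of 8 pericyte and smooth muscle markers, 3 were called lower than in inflamed skin and none higher: Kcnj8, a potassium channel subunit (-2.14 ± 0.27, limma adjusted p = 0.000713), Cspg4, the NG2 proteoglycan (-1.34, limma adjusted p = 0.035), and Notch3, a Notch receptor (-1.31, limma adjusted p = 0.0343). That count was 2 without both arrays numbered 4 and 1 with the spike covariate. Kcnj8 was already called lower in inflamed than in normal skin (-1.86, limma adjusted p = 0.0202). Cspg4 (0.69) and Notch3 (0.80) lay higher in inflamed than in normal skin, not called. Against normal skin 2 markers of the list were called lower in papilloma-associated skin and none higher. Endothelial, Schwann cell and melanocyte, and skeletal muscle lists had 0 called in either Pap comparison by limma, and against normal skin 2, 1 and 0 had an unadjusted p under 0.05, against inflamed skin 1, 0 and 1. Kdr, Tie1, Tek and Emcn of the 8 endothelial markers and Ptprc, Adgre1 and Cd3g of the 12 leukocyte markers were dim in all groups. Of the leukocyte markers 1 was called higher than in inflamed skin, S100a9, a calcium-binding protein of neutrophils (1.02, limma adjusted p = 0.0285). S100a9 was also called higher than in normal skin (1.11, limma adjusted p = 0.013). Csf1r (-2.14) and H2-Ab1 (-1.60), genes of macrophages and antigen-presenting cells, were called lower than in normal skin. Their other probe sets had no call there (-1.50 and -0.48 for Csf1r, -0.36 and -0.70 for H2-Ab1).

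**Figure D4:**
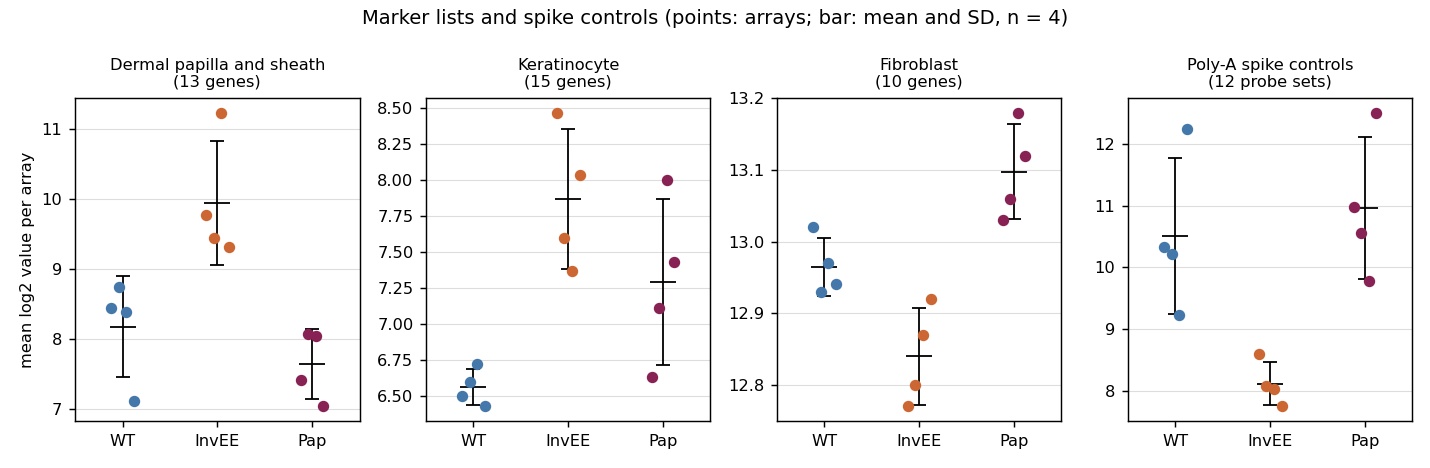
Mean log2 value per array (vertical axes, each panel with its own scale that does not start at 0) of the dermal papilla and sheath, keratinocyte and fibroblast marker lists and of 12 poly-A spike probe sets; points are arrays and bars the mean and SD of 4 arrays. The papilla list is highest on the inflamed arrays (9.32 to 11.24), and the spike controls are lowest there (7.76 to 8.60).

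Genes of the members' pathways were followed from lists. Around Kcp, 27 BMP ligands, receptors, extracellular modulators and feedback genes were measured, of which 3 were called higher and 6 lower in papilloma-associated than in inflamed skin (median -0.07, with 0.12 over all genes). Bmp4, a BMP ligand, fell from 11.37 to 8.13, by -3.24 ± 0.24 (SE, n = 4; limma adjusted p = 1.58e-05), and Grem1, a secreted BMP antagonist, rose from 8.52 to 12.08, by 3.56 ± 0.45 (limma adjusted p = 0.000732). Sostdc1, another antagonist, fell by -3.75 ± 0.72 (limma adjusted p = 0.0101) and Bambi, a decoy receptor, by -3.07 ± 0.39 (limma adjusted p = 0.000779). The paralogues and relatives Chrd (0.16), Chrdl1 (0.90), Crim1 (-0.15) and Bmper (0.53, dim in all groups) did not pass. With the spike level as a covariate 1 gene of the list was called higher and 1 lower.

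Of 20 genes of Wnt5a, Ror and planar polarity signalling, listed for Kif26b, limma called 0 against inflamed skin, where 7 had an unadjusted p under 0.05, and 3 higher than in normal skin. They were Wnt5a itself (1.78 ± 0.44, SE, n = 4; limma adjusted p = 0.0235), the polarity gene Prickle2 (1.60 ± 0.39, limma adjusted p = 0.0228) and Myh10, a non-muscle myosin (0.73 ± 0.17, limma adjusted p = 0.0182; -0.75 on its other probe set, not called). The paralogue Kif26a stood at 10.5, 10.48 and 10.35 in normal, inflamed and papilloma-associated skin, with a Pap minus WT difference of -0.14 (limma adjusted p = 0.81). Against inflamed skin 2 genes of the list were called higher without both arrays numbered 4, and 6 after the ribosomal protein shift.

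For Tcim, 18 genes of beta-catenin, its partners and targets were measured, and 4 were called lower and none higher in papilloma-associated than in inflamed skin, while Tcim itself rose. Lef1, a transcription factor that binds beta-catenin, fell by -2.91 ± 0.41 (SE, n = 4; limma adjusted p = 0.00154), and Notum, which inactivates Wnt ligands, by -2.01 ± 0.26 (limma adjusted p = 0.000801). Tcf7l2, a relative of Lef1, differed by -1.20 (limma adjusted p = 0.048) and Dkk1, a secreted Wnt inhibitor that was dim in all groups, by -0.94 (limma adjusted p = 0.0112; -0.42 on its other probe set, not called). The median of the list was -0.50. Without both arrays numbered 4, 3 were called lower, with the spike covariate 1, and after the ribosomal protein shift 2, with 1 called higher. Lef1 and Notum are also known as genes of the dermal papilla, though neither was on the list of its markers used here. The part of dermal papilla cells in the fall of these 2 genes was not tested.

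Among 11 relatives and integrin receptors of Egfl6, 2 were called higher and 1 lower than in inflamed skin. Frem1, a follicle basement membrane protein, fell by -2.98 ± 0.41 (SE, n = 4; limma adjusted p = 0.0013), and the integrin subunits Itgb1 and Itga5 rose by 1.25 ± 0.25 (limma adjusted p = 0.0117) and 1.22 ± 0.21 (limma adjusted p = 0.00469). Of the other probe sets, 0 of 5 for Itgb1 and 1 of 3 for Itga5 were called. Itga8, which pairs with Itgb1 as a receptor of Egfl6 and its relative Npnt, was 3.02 ± 0.60 higher in papilloma-associated than in normal skin (limma adjusted p = 0.00777), with means of 7.13, 9.56 and 10.15 in normal, inflamed and papilloma-associated skin. Against inflamed skin Itga8 was not called (0.59, limma adjusted p = 0.536). The relatives Npnt (0.23), Egfl7 (0.35) and Egfl8 (0.10) did not pass against inflamed skin.

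Of 11 partners of Pawr, Bcl2, an inhibitor of apoptosis, fell by -2.84 ± 0.24 (SE, n = 4) from inflamed to papilloma-associated skin (limma adjusted p = 5.51e-05; -1.42 to -3.21 on 4 other probe sets, 3 of them called), and no other partner was called on the probe set used. Without both arrays numbered 4, 1 partner was called higher. Spsb1, an adaptor of a ubiquitin ligase, was 2.18 ± 0.33 higher than in normal skin (limma adjusted p = 0.00157). Against inflamed skin it was not called on that probe set (0.94, limma adjusted p = 0.109), and on its 3 others it differed by 1.18 (limma adjusted p = 0.0115), 1.71 (limma adjusted p = 0.0278) and 0.62 (not called). Sqstm1, an autophagy receptor, was lower than in normal skin (-1.03, limma adjusted p = 0.0283; 0.01 on its other probe set, not called). Within the Mex3 family, Mex3b rose to 9.05 in papilloma-associated from 6.69 in normal skin, by 2.36 ± 0.42 (SE, n = 4; limma adjusted p = 0.00406). Mex3c had means of 7.70, 9.76 and 8.20, with a Pap minus InvEE difference of -1.56 (limma adjusted p = 0.125; -2.45, called, on its other probe set), and Mex3d of 8.07, 8.58 and 8.59.

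Of 10 measured relatives of Spock1 and proteases linked with testicans, 2 were called higher and 2 lower than in inflamed skin. Sparcl1, a matricellular protein of the SPARC family, fell by -3.02 ± 0.34 (SE, n = 4; limma adjusted p = 0.000345) and Smoc1, a further relative, by -1.34 ± 0.31 (limma adjusted p = 0.023). Mmp14, a membrane-bound metalloproteinase, rose by 1.02 ± 0.17 (limma adjusted p = 0.00462; 0.52, not called, and 1.05, called, on further probe sets) and Ctsl, the protease cathepsin L, by 0.74 ± 0.20 (limma adjusted p = 0.0485; 0.21, not called, on its other probe set). The paralogue Spock2 fell in steps from 9.86 through 8.97 to 7.94, and was called lower in papilloma-associated than in normal skin (-1.92 ± 0.30, limma adjusted p = 0.00182), while Spock3 was dim in all groups. With the spike covariate limma called 0 genes against inflamed skin both here and among the relatives and receptors of Egfl6.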

How the data were processed

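Log2 expression values of 45101 probe sets on 12 arrays were used as the authors deposited them. Per the submitters' processing notes limma was used, with no version; how the deposited log2 values were background-corrected, summarised and normalized is not given in the sources used here (labels and notes). The values, 2.08 to 14.955, were quantile-normalized. Of the probe sets, 64 were controls, 34945 had exactly 1 gene symbol, 932 several and 9160 none. The probe set with the highest mean stood for each of 18193 genes.

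All 12 arrays entered a single limma 3.58.1 model (R 4.3.3) with a mean for each of 3 groups, moderated variances, two-sided tests and Benjamini-Hochberg adjustment over all genes; called means an adjusted p under 0.05. Other probe sets were adjusted over all non-control probe sets. The script was tested on simulated data with 200 changed genes. Exact permutation tests used SciPy 1.17.1. No dim genes were left out, and no detection calls were used. The number of arrays limits the precision.

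The members and lists were chosen with earlier results of these data known. Genes named are the 7 members, the 3 nearest to each, paralogues, and in each pathway list up to 4, in each marker list up to 3, called genes with the largest difference between papilloma-associated and inflamed skin, then normal skin; Fnbp1l and Fxyd3 only mark the threshold. Alternatives covered normalization, scaling, probe-set choice, filtering, the arrays fitted, weights, variance model, a replicate block, a spike covariate, the threshold and leaving out each array. The replicate numbers were not taken to pair the arrays, since 2 of 12 correlations of same-numbered deviations from group means were over 0.1. Both were between normal and papilloma-associated arrays, 0.161 for number 3 and 0.177 for number 4. In both of these groups the spike level also fell in the same order, from array 4 through arrays 1 and 2 to array 3. A batch shared by same-numbered arrays was not tested beyond the replicate block.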

Additional observations from a re-analysis of the deposited data

Results flagged for a closer look

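A test for 1 array far from the other 3 of its group (Dixon's, at its 95% critical value) was run on 33 groups, 11 probe sets in 3 groups each, and it marked 3, where chance marks about 1 in 20. All 3 were on probe sets other than the one used. Inflamed array 3 was high for the other Tcim probe set, at 6.74 against 5.79 for the next. Papilloma-associated array 4 was low for the other Mex3a probe set, at 4.44 against 6.25. Normal array 4 was low for the other Spock1 probe set, at 5.09 against 7.21. On the probe sets used, the closest was Kcp on inflamed array 3, at 11.61 against 10.47.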

How the results depend on the processing

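Over the alternatives the members' differences in the 2 Pap comparisons gave 334 values, of which 311 kept their direction and their side of the threshold, 17 were no longer called, 5 became called and 1 reversed, Kcp against inflamed skin with the spike covariate (0.13). The number of members called higher than in inflamed skin (1) was 2 after the ribosomal shift, with array weights or without both arrays numbered 4, 0 with the spike covariate or at a threshold of 0.01, and 0 to 2 without 1 array. The number called lower (2) was 1 without dim genes, where Egfl6 was not tested, 0 with the spike covariate, and 2 in every fit without 1 array. Over all genes, calls against inflamed skin (1221) numbered 3025 after the ribosomal shift, 2813 with array weights, 259 with the spike covariate, 396 at 0.01, and 578 to 1581 without 1 array, with 578, 621 and 716 without inflamed arrays 1, 2 and 4. Those of papilloma-associated against normal skin (1756) numbered 1094 with 8 arrays, 757 at 0.01, and 1259 to 1792 without 1 array. Those of inflamed against normal skin (97) numbered 62 on deposited values, 228 with the mean of all probe sets, 839 with array weights, 219 without both arrays numbered 4, 57 with the replicate block, and 0 at 0.01 or with the spike covariate, where 2206 had an unadjusted p under 0.05. Without 1 array limma called 0 to 249 genes there and 0 to 7 members, with 0 members called where normal arrays 1 or 2, or inflamed arrays 1 or 2, were the one missing. The replicate block gave 1551 and 1039 calls in the Pap comparisons and changed no call of a member there. Set against the 4 arrays of another group, an array correlated best with its own number 10 of 24 times. The causes were not tested.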
